A study of Homo sapiens with 9 samples.

Results

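The erythroid and globin genes followed here were KLF1, GYPC, HBA1, HBG1, HBG2, HBZ, ALAS2, AHSP and EPB42, 9 of the 25680 gene symbols in the count files. They were found in the files by gene symbol. KLF1 is a transcription factor of red cell precursors, HBA1, HBG1, HBG2 and HBZ encode globin chains, ALAS2 and AHSP serve haem synthesis and globin assembly, and GYPC and EPB42 encode proteins of the red cell membrane. In these cells 2 of the 9 genes, KLF1 and GYPC, were expressed well above the detection limit, and the other 7 were at or near 0 counts.

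The samples were poly(A) RNA libraries of SKNO-1, a human line of acute myeloid leukaemia that carries the AML1-ETO (RUNX1-RUNX1T1) fusion and was grown with GM-CSF. There were 3 groups of 3 samples: control cells (shControl, called EV in the labels) and cells with 1 of 2 shRNAs against ASXL2, a chromatin regulator (shASXL2-2 and shASXL2-3). All 9 samples carried the fusion, and all came from 1 cell line. Each group held samples numbered 1, 13 and 25. The labels do not say what the numbers stand for, nor whether samples came from separate cultures, so p values measure the spread between these samples only.

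Red cell precursors switch on a shared programme in which GATA1, TAL1 and KLF1 act together on the genes for globins, haem enzymes and the membrane skeleton. KLF1 binds CACCC boxes and GATA1 binds GATA motifs, and these often stand near each other in erythroid promoters. Globin genes are used in a developmental order, with HBZ in the embryo, HBG1 and HBG2 in the fetus and HBA1 from fetal life onwards. Several regulators of the programme, such as TAL1, LMO2 and GATA2, also act in stem and progenitor cells of other blood lineages.

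The totals were 27714431 to 35406063 counts per sample with 1 transcript per gene. A floor of 3 counts then corresponded to 0.0825 to 0.109 CPM, the count scaled to the TMM-adjusted library, and this floor covers counting error only. The target ASXL2 averaged 70.2 ± 3.94 CPM in control cells, against 34.3 ± 3.35 CPM and 32.4 ± 7.66 CPM for the first and second shRNA (SD, n = 3 each). The myeloid markers of the line were detected, with MPO at 183737 to 338581 counts and RUNX1T1 at 3098 to 4767 counts. Defining markers of red cells were absent or near the floor, since HBB had 0 counts in all 9 samples and SLC4A1, the anion exchanger band 3, had 0 to 5. The library of shASXL2-3 numbered 1 stood apart, at -58.6 on the first principal component against -24.9 and -21.2 in the other samples numbered 1 and 4.84 to 25.0 in the rest. For some of the values below that moved with this library, the value without it is also given.

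Among the globins, the embryonic zeta chain HBZ and the fetal gamma chains HBG1 and HBG2 had 0 counts in all 9 samples. The alpha chain HBA1 (NM_000558) had a single count, in the shASXL2-2 sample numbered 1, and 0 counts in the other 8. Over the 9 libraries together, a count of 0 allows a level of up to 0.0109 CPM. AHSP, the chaperone that holds free alpha globin, also had 0 counts in every sample. No group and no number therefore held detectable transcript of these 5 genes at this depth, and the fetal genes could not be compared with each other. In bulk RNA, few expressing cells and little RNA per cell cannot be told apart.

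Reads of near-identical genes need care in this family. Of the windows of 100 bases in the HBA1 transcript, 79.7% also occurred in HBA2, and 53.9% of those of HBG1 occurred in HBG2. Pairs of copies elsewhere, chosen after their values were seen, still held counts. SMN1 and SMN2, with 85.5% of windows shared, had equal counts of 324 to 408 in 9 of 9 samples, and BOLA2 and BOLA2B had equal counts of 54 to 86. HBA2, the other adult alpha gene, had 1 count in the shASXL2-3 sample numbered 13 and 0 elsewhere.

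The remaining globin genes gave the same picture with 1 exception. HBB and HBD (adult beta and delta), HBE1 (embryonic epsilon), HBM (mu) and the pseudogene HBBP1 had 0 counts in all 9 samples. HBQ1, the theta gene at the end of the alpha cluster, whose role is unsettled, was the single globin to pass the filter on low counts. Its counts in the samples numbered 1, 13 and 25 were 41, 23 and 29 in shControl, 35, 32 and 39 with shASXL2-2 and 62, 25 and 31 with shASXL2-3. The groups overlapped, and the highest value was again that of the shASXL2-3 sample numbered 1. None of the 100-base windows of HBQ1 occurred in HBA1 or HBZ. On the scale of CPM per kilobase of transcript HBQ1 was at 2.19. This placed it at the 25.6 percentile of the 13396 genes that passed the filter and had a length. With the replicate number as a block, its log2 fold change was 0.31 for shASXL2-2 and 0.44 for shASXL2-3, with edgeR adjusted p values of 0.567 and 0.406. Without the shASXL2-3 sample numbered 1 the value for shASXL2-3 was 0.03. Between number 1 and the mean of numbers 13 and 25 the log2 difference was 0.55 and did not pass (edgeR adjusted p 0.0703), and without the shASXL2-3 sample numbered 1 it was 0.19 (edgeR adjusted p 0.557).

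**Figure D1:**
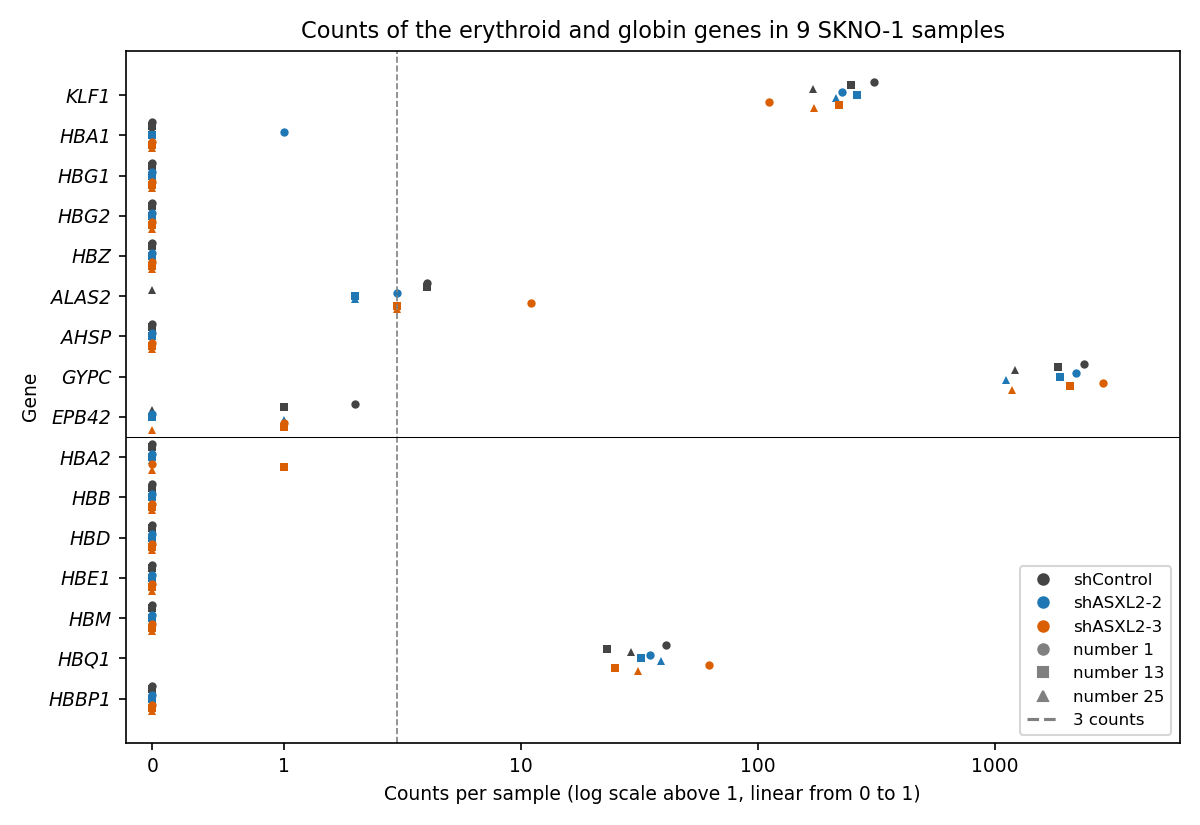
Counts of the 9 erythroid and globin genes (above the line) and of 7 other globin genes (below it) in each of the 9 samples, on an axis that is logarithmic above 1 count, with colours for groups, shapes for numbers and a dashed line at the floor of 3 counts. GYPC lies between 1109 and 2850 counts and KLF1 between 111 and 309 counts in every sample, HBQ1 between 23 and 62, and the other globin genes at 0 or 1.

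ALAS2 is the erythroid form of the first enzyme of haem synthesis. Its counts (NM_001037968) in the samples numbered 1, 13 and 25 were 4, 4 and 0 in shControl, 3, 2 and 2 with shASXL2-2 and 11, 3 and 3 with shASXL2-3. The groups overlapped, and all samples but 1 lay at or near the floor. The exception, shASXL2-3 numbered 1, was at 0.375 CPM with an exact 95% binomial interval of 0.187 to 0.670 CPM. Both shRNAs together differed from shControl by 0.45 on the log2 CPM scale with a prior count of 2 (two-sided exact permutation test over 84 splits, p = 0.488). The samples numbered 1 differed from the other 6 by 0.78 (two-sided exact permutation test, p = 0.119), where the smallest p this design allows is 0.0119. Without the shASXL2-3 sample numbered 1 these differences were 0.19 (two-sided exact permutation test, p = 0.768) and 0.33 (p = 0.464, exact over 28 splits).

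EPB42 encodes protein 4.2, which ties band 3 to the membrane skeleton. Its counts (NM_000119) were 2, 1 and 0 in the shControl samples numbered 1, 13 and 25, then 0, 0 and 1 with shASXL2-2 and 1, 1 and 0 with shASXL2-3. No sample reached the floor. The log2 difference of both shRNAs from shControl was -0.20 (two-sided exact permutation test, p = 0.595), and that of the samples numbered 1 from the other 6 was 0.20 (p = 0.548 by the exact permutation test). For HBA1, with its single count, the two-sided exact permutation test gave p = 1 between the shRNAs and shControl and p = 0.333 between number 1 and the others.

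KLF1 was measured in every sample at a moderate level. Its counts (NM_006563) in the samples numbered 1, 13 and 25 were 309, 246 and 171 in shControl, or 8.50, 8.37 and 5.70 CPM. They were 225, 261 and 212 with shASXL2-2, or 7.53, 8.18 and 7.35 CPM, and 111, 220 and 172 with shASXL2-3, or 3.78, 6.79 and 6.26 CPM. The groups overlapped, with the lowest value in the shASXL2-3 sample numbered 1 and the next in the shControl sample numbered 25. The group means were 7.52 ± 1.58, 7.69 ± 0.437 and 5.61 ± 1.61 CPM (SD, n = 3 each). Per kilobase KLF1 was at 4.30 CPM, at the 36.1 percentile of the 13396 genes that passed the filter and had a length. Their median was 8.37 CPM per kilobase.

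GYPC was the most abundant of the genes. It encodes glycophorins C and D, which anchor the membrane skeleton through protein 4.1 and are also made outside the red cell lineage. Its counts (NM_001256584) in the samples numbered 1, 13 and 25 were 2366, 1841 and 1214 in shControl, or 65.1, 62.6 and 40.5 CPM. They were 2186, 1881 and 1109 with shASXL2-2, or 73.2, 58.9 and 38.4 CPM, and 2850, 2073 and 1181 with shASXL2-3, or 97.0, 64.0 and 43.0 CPM. In each group number 1 was highest and number 25 lowest, and no value of 1 number overlapped those of another. The closest neighbours in that order were shControl numbered 1 at 65.1 CPM and shASXL2-3 numbered 13 at 64.0 CPM. Between groups the values overlapped, with means of 56.1 ± 13.5, 56.9 ± 17.5 and 68.0 ± 27.2 CPM (SD, n = 3 each). Per kilobase GYPC was at 59.2 CPM, at the 89.9 percentile. The other GYPC transcripts in the files had totals of 16607 and 16577 counts against 16701 for the one used.

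**Figure D2:**
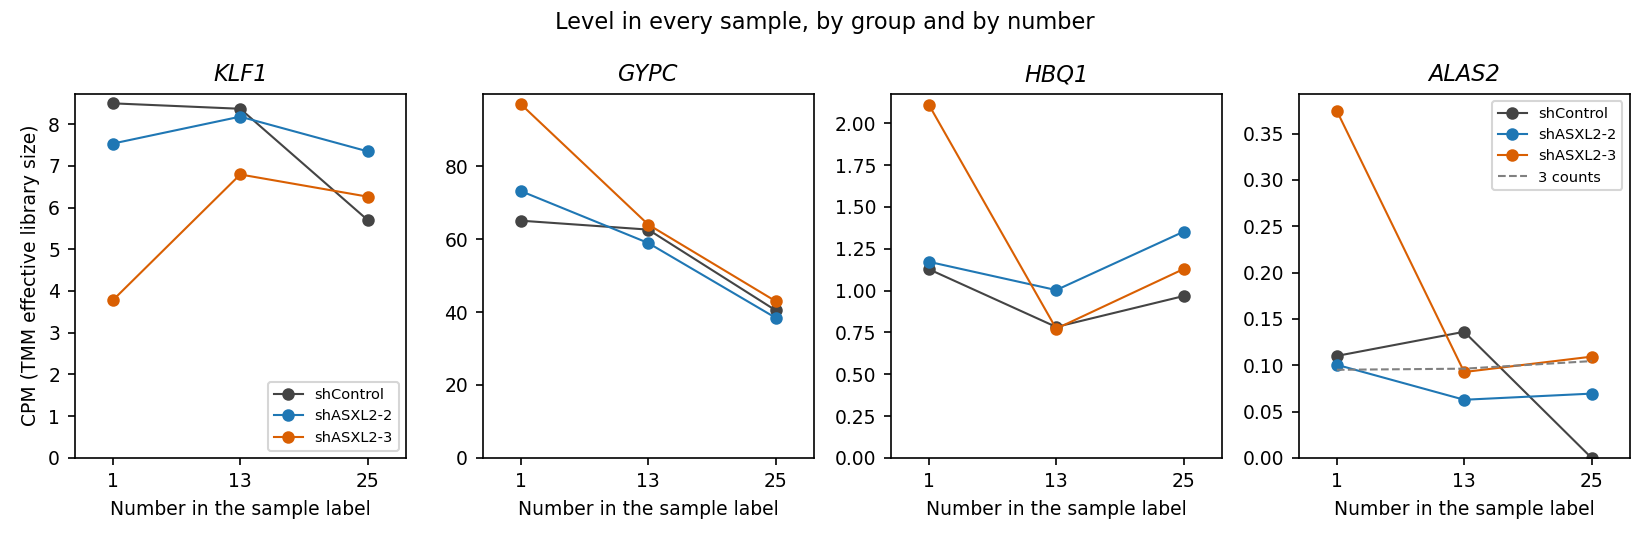
Level in CPM (TMM-scaled library) of KLF1, GYPC, HBQ1 and ALAS2 in every sample against the number in the label, with 1 line per group, each vertical axis starting at 0, and the level of 3 counts dashed for ALAS2. The GYPC lines all run downwards from number 1 to number 25, from 65.1 to 97.0 CPM to 38.4 to 43.0 CPM, while the KLF1 lines cross and the shASXL2-3 sample numbered 1 is the lowest for KLF1 and the highest for the other 3 genes. The lines join samples of a group and imply no order in time.

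For the first question, whether knockdown of ASXL2 moved these genes, 0 of the 2 genes that passed the filter were called in any of the 4 shRNA comparisons. With no block in the edgeR fit, 0% of all 14199 genes were called in each comparison, while an unadjusted p under 0.05 was reached by 762 genes (shASXL2-2), 723 (shASXL2-3), 942 (mean of both) and 293 (shASXL2-3 against shASXL2-2). DESeq2 without the block called 25, 26, 56 and 11 genes in the same order, and neither KLF1 nor GYPC was among them. With the replicate block edgeR called 0.282%, 0.416%, 1.1% and 0.106% of genes in that order, and again 0 of the 2 genes. DESeq2 with the block called 374, 474, 622 and 152 genes, again with neither KLF1 nor GYPC among them. The remaining 7 genes were below the filter and received no adjusted p.

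The log2 fold change of KLF1 was 0.03 with shASXL2-2 (95% interval -0.50 to 0.56, edgeR adjusted p 0.998) and -0.42 with shASXL2-3 (95% interval -0.96 to 0.11, edgeR adjusted p 0.971). With the replicate block these were 0.03 and -0.43, the second with an edgeR adjusted p of 0.273. Against the shControl sample of the same number, KLF1 with shASXL2-3 differed by -1.17, -0.30 and 0.14 on the log2 scale for numbers 1, 13 and 25. The values thus lay on both sides of the control. Without the shASXL2-3 sample numbered 1 the log2 fold change was -0.21. Between the shRNAs KLF1 differed by -0.45 (95% interval -0.99 to 0.08, edgeR adjusted p 0.998), and by -0.24 without the shASXL2-3 sample numbered 1. The interval for shASXL2-2 is wide enough to hold a change of 0.50 in either direction.

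The log2 fold change of GYPC was 0.02 with shASXL2-2 (95% interval -0.70 to 0.74, edgeR adjusted p 0.998) and 0.28 with shASXL2-3 (95% interval -0.44 to 0.99, edgeR adjusted p 0.981). With the replicate block, which takes out the spread between numbers, the value with shASXL2-3 was 0.24 (95% interval 0.02 to 0.45, edgeR adjusted p 0.229). Against the control of the same number, GYPC with shASXL2-3 was higher by 0.58, 0.03 and 0.09 for numbers 1, 13 and 25, so most of the difference lay in 1 sample. Without the shASXL2-3 sample numbered 1 and without the block, the log2 fold change was -0.07. Between the shRNAs it was 0.26 (95% interval -0.46 to 0.97, edgeR adjusted p 0.998). That value ranged from -0.0871 to 0.51 when 1 sample was left out. The comparisons with shControl share the same 3 control samples.

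With the replicate block and without the shASXL2-3 sample numbered 1, a fit added after the values were seen, edgeR called far more genes, 11.2% for shASXL2-2, 2.58% for shASXL2-3, 12.3% for the mean of both and 0.721% for shASXL2-3 against shASXL2-2. Of KLF1 and GYPC, 0 were called in these 4 comparisons. KLF1 was then at 0.04 with shASXL2-2 and -0.16 with shASXL2-3, and GYPC at 0.0038 and 0.10 (edgeR adjusted p 0.484 to 0.977). The absence of a call for these genes therefore did not rest on that library.

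The second question was whether the genes differed between the numbers, with the group as a term in the fit. GYPC was higher in number 1 than in the mean of numbers 13 and 25, by 0.63 on the log2 scale (SE 0.08, 95% interval 0.45 to 0.81, edgeR adjusted p 0.00049) or 1.55-fold. It was lower in number 25 than in number 13, by -0.61 (SE 0.10, 95% interval -0.82 to -0.39, edgeR adjusted p 0.00844). These comparisons called 46.3% and 5.87% of all genes. In the first 24.1% were higher and 22.2% lower, and in the second 2.77% were higher and 3.1% lower, so that a call between number 1 and the others was common across the transcriptome. Without the shASXL2-3 sample numbered 1, where 33.7% and 19.2% of genes were called, GYPC still differed, by 0.49 (edgeR adjusted p 0.000116) and -0.60 (edgeR adjusted p 6.14e-05). The difference of number 25 from number 13 did not pass when any of 4 other libraries was left out: shControl numbered 25 (-0.65, edgeR adjusted p 0.0577), shASXL2-2 numbered 13 (-0.59, edgeR adjusted p 0.0688), shASXL2-2 numbered 25 (-0.61, edgeR adjusted p 0.0733) or shASXL2-3 numbered 25 (-0.54, edgeR adjusted p 0.0748).

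Number 1 and number 13, the neighbours at the top of the GYPC order, were compared after the values were seen. The log2 difference was 0.33 (SE 0.10, 95% interval 0.12 to 0.54, edgeR adjusted p 0.0251), in a comparison that called 34.3% of all genes, 18% higher and 16.2% lower. It fell to 0.19 without the shASXL2-3 sample numbered 1 (edgeR adjusted p 0.0662), where 24.4% of genes were called. It also did not pass without shASXL2-2 numbered 1 (0.33, edgeR adjusted p 0.0587), shASXL2-2 numbered 13 (0.33, edgeR adjusted p 0.0757) or shASXL2-3 numbered 13 (0.25, edgeR adjusted p 0.125).

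KLF1 did not pass in the comparisons between numbers. Its log2 difference was -0.13 between number 1 and the others (95% interval -0.51 to 0.25, edgeR adjusted p 0.549), and 0.13 without the shASXL2-3 sample numbered 1 (edgeR adjusted p 0.459). Between number 25 and number 13 it was -0.27 (95% interval -0.70 to 0.17, edgeR adjusted p 0.447), and -0.0423 without the shControl sample numbered 25 (edgeR adjusted p 0.941). Between number 1 and number 13 it was also -0.27 (edgeR adjusted p 0.311), and -0.0054 without the shASXL2-3 sample numbered 1 (edgeR adjusted p 0.982). Between the numbers GYPC thus passed and KLF1 did not, while the difference between the genes was not itself tested.

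**Figure D3:**
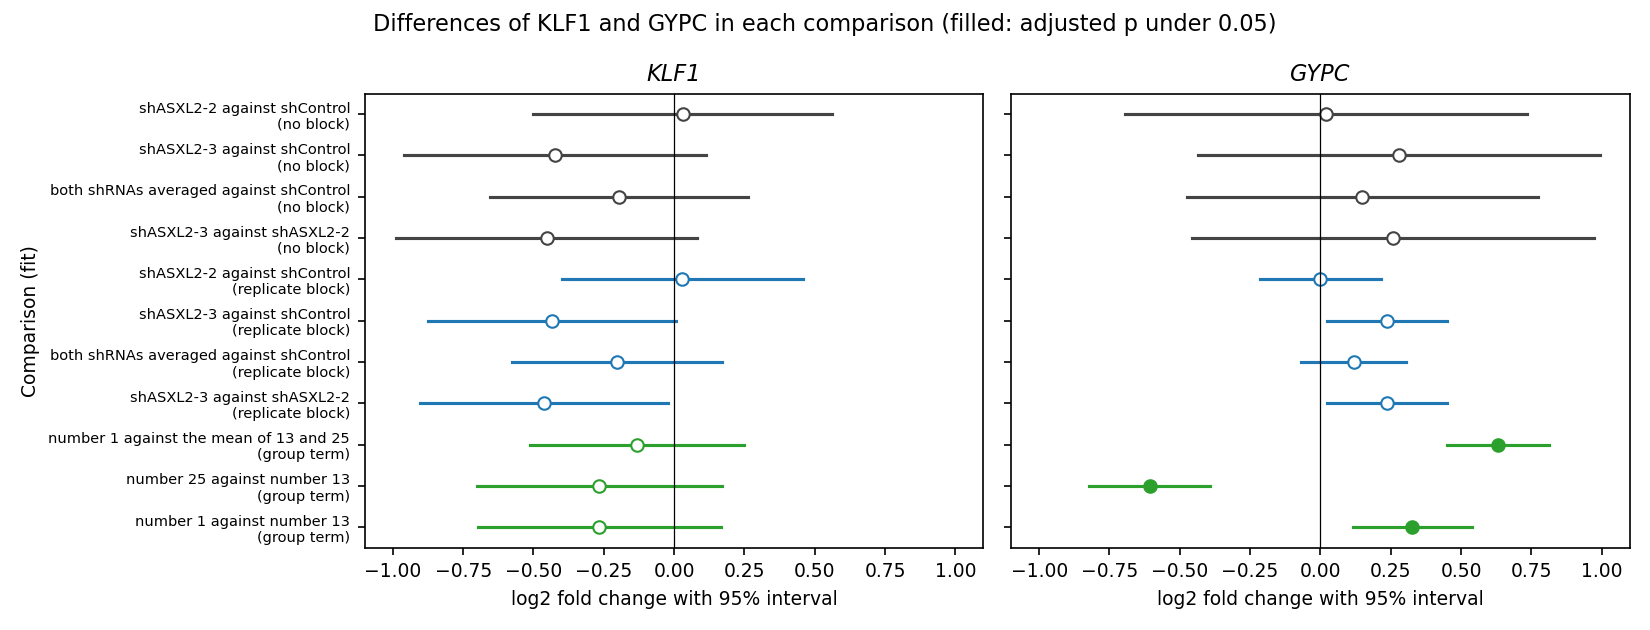
Log2 fold change with its 95% interval for KLF1 and GYPC in each comparison, from edgeR without the replicate block (black), with it (blue) and, between numbers, with the group as a term (green), where filled points have an adjusted p under 0.05. The filled points are the 3 GYPC differences between numbers, at 0.63, -0.61 and 0.33, and the GYPC intervals between groups are narrower with the block.

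Depth and other lineage markers also varied between the numbers, and some marker sums between the groups. The totals were 30385271 to 35406063 counts in number 1, 29197656 to 32648040 in number 13 and 27714431 to 29705803 in number 25. Of 9 megakaryocyte markers 8 had a count, with a summed level of 72.5 to 150.2 CPM in number 1, 58.5 to 112 CPM in number 13 and 70.9 to 100.3 CPM in number 25. PF4 had 0 counts in all samples, and GP9 and ITGB3 had 0 to 2. Of 7 mast cell and basophil markers all had a count, with summed levels of 44.2 to 88.0, 44.5 to 67.5 and 37.8 to 54.6 CPM. The granule and neutrophil markers summed to 7956 to 11228, 9141 to 10467 and 7239 to 9987 CPM, and the lymphocyte markers, with CD3E, CD3G and MS4A1 at 0 counts throughout, to 50.3 to 67.5, 57.0 to 60.1 and 53.6 to 56.7 CPM. Number 1 against the others called 46.3% of all genes. Of markers that passed the filter, 2 of 4 megakaryocyte genes were called, VWF (1.92) and ITGA2B (0.45), both higher, with a median of 0.40. VWF was at 3.64 CPM in the shASXL2-3 sample numbered 1, against 0.963 and 0.703 CPM in the other samples numbered 1. Of 6 mast cell and basophil genes 3 were called, HDC (1.19) and CPA3 (0.56) higher and CLC (-0.68) lower, with a median of 0.54. Among 7 granule genes CSF3R (0.61) and AZU1 (0.37) were higher and ELANE (-0.27) lower, with a median of 0.13, and of 2 lymphocyte genes CD79A (0.43) was higher. Without the shASXL2-3 sample numbered 1 the calls were VWF, HDC and CLC among the first 2 lists, whose medians were 0.33 and 0.08. The share of all genes called was then 33.7%. By group, megakaryocyte sums were 100.3 to 112 CPM in shControl, 58.5 to 72.5 with shASXL2-2 and 65.2 to 150.2 with shASXL2-3. Mast cell and basophil sums were 54.0 to 67.5, 44.2 to 44.7 and 37.8 to 88.0 CPM in that order. With all 9 samples edgeR called neither list between groups. The other sums overlapped. In the blocked fit without the shASXL2-3 sample numbered 1, ITGA2B and CPA3 were lower with each shRNA (11.2% and 2.58% of all genes called). The part of these markers in the GYPC differences was not tested.

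By Pearson correlation of log2 CPM over the 9 samples, the genes most like KLF1 were SPRN (r = 0.970), RFX5 (0.958) and RBM15B (0.944). Those most like GYPC were HBP1 (0.997), ORAI3 (0.979) and RBPJ (0.978). These were the highest of 14198 genes searched, and the points share libraries, depth and the split by number.

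The promoters show which letters these genes have in common upstream of their starts. The 250 bases before the start are printed for the 4 genes in the RefSeq promoter table (GRCh38.p14), 5′ to 3′ on the strand of the gene, because they include both genes that passed the filter and a pair below it. Capitals mark GATA motifs (AGATAA or AGATAG, or the same with T as the first letter) and CACCC boxes, on either strand. KLF1 is at chr19:12887202-12887451 (minus strand), GYPC at chr2:126655908-126656157 (plus strand), ALAS2 at chrX:55030978-55031227 (minus strand) and EPB42 at chr15:43221019-43221268 (minus strand).
KLF1: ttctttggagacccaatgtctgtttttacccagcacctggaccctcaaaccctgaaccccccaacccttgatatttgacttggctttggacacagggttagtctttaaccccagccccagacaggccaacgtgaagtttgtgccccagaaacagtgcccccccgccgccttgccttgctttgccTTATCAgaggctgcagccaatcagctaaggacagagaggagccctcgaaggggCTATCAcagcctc
GYPC: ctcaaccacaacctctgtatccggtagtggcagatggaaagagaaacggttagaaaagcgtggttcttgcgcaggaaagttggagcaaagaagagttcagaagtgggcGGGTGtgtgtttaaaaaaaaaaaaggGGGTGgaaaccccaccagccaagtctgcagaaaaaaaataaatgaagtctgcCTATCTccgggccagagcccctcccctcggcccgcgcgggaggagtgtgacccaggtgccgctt
ALAS2: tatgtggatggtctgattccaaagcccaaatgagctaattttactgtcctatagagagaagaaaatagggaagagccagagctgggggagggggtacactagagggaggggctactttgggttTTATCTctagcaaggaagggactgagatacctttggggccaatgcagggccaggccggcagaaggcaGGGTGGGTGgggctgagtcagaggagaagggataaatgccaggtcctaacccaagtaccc
EPB42: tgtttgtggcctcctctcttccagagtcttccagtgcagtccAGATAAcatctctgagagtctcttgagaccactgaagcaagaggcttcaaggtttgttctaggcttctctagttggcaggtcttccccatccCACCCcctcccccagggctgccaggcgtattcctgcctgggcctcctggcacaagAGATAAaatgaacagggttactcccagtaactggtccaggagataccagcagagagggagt
KLF1 had GATA motifs at 66 and 13 bases before the start and 0 CACCC boxes. GYPC had 1 GATA motif, at 64 bases, and 2 CACCC boxes. ALAS2 had 1 GATA motif, at 127 bases, and 2 CACCC boxes that overlap, and EPB42 had GATA motifs at 208 and 61 bases and 1 CACCC box. Of the 35116 promoters of this length in the table, 22.3% held such a GATA motif and 54.7% a CACCC box. A match describes letters only, and GATA motifs were found in ALAS2 and EPB42, below the filter, as well as in KLF1 and GYPC, which passed it.

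In the genome (GRCh37, GENCODE), KLF1 spans 12995236 to 12998015 on the minus strand of chromosome 19 in 3 exons, and GYPC spans 127413734 to 127454243 on the plus strand of chromosome 2 in 4 exons. ALAS2 lies at 55035488 to 55057410 on chromosome X with 11 exons, and EPB42 at 43489425 to 43513216 on chromosome 15 with 13 exons, both on the minus strand. The alpha-type genes lie together on the plus strand of chromosome 16, with HBZ at 202643 to 204502, HBA1 at 226679 to 227521 and HBQ1 at 230458 to 231178. HBG1 and HBG2 adjoin each other on the minus strand of chromosome 11, at 5269499 to 5271087 and 5274418 to 5276011. AHSP lies further along chromosome 16, at 31539221 to 31540124. All these genes are annotated as protein-coding.

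The regulators upstream of these genes were largely present. Of 20 erythroid transcription factors 19 passed the filter. GATA1, which cooperates with KLF1, had 49 to 178 counts. TAL1, a partner of GATA1, was in the fit with the replicate block lower with shASXL2-3 by -0.56 (edgeR adjusted p 0.030), at 35.6, 38.4 and 35.7 CPM in numbers 1, 13 and 25 against 48.1, 59.6 and 54.3 CPM in shControl. None of the others passed in the shRNA comparisons with all 9 samples. Compared with the others, number 1 was higher in 6 and lower in 2 of the 19, where 46.3% of all genes were called. The median log2 difference was 0.06 against 0.01 over all genes, and it turned to -0.0216 against 0.0013 without the shASXL2-3 sample numbered 1. NFE2 (0.65), CBFA2T3 (0.51) and FOXO3 (0.35) were higher, and ZFPM1, the GATA1 cofactor FOG1 (-0.49), and E2F4 (-0.49) were lower (edgeR adjusted p 0.000464 to 0.00318). In number 25 against number 13, 4 were lower, CBFA2T3 (-0.57), KLF13 (-0.40), ZFPM1 (-0.34) and FOXO3 (-0.32), where 5.87% of all genes were called.

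Of 18 genes listed as regulators of fetal globin or linked to them, 14 passed the filter and 2 had 0 counts in all samples. None was called in the shRNA comparisons in either edgeR fit of all 9 samples, which called at most 1.1% of all genes. Number 1 differed from the others in 6 of the 14, beside 46.3% of all genes, and of these 2 were higher, the gamma globin repressor BCL11A (0.39) and MYB (0.24), while 4 were lower, among them the DNA methyltransferase DNMT1 (-0.38), HIC2 (-0.22) and HBS1L (-0.22). None was called between numbers 25 and 13 (median -0.03), where 5.87% of all genes were called.

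Apart from ALAS2, the listed haem genes were all present, which are genes of synthesis, transport and breakdown (HMOX1, HMOX2, BLVRA and BLVRB). All 20 listed genes passed the filter. None was called in the shRNA comparisons in either fit of all 9 samples, where edgeR called at most 1.1% of all genes. Between number 1 and the others 4 were higher and 7 lower, 11 of 20 against 46.3% of all genes, with a median of 0.02. The porphyrin transporter ABCB6 (0.65) and the enzymes ALAD (0.48) and PPOX (0.43) were among the higher, while the enzyme UROS (-0.37) was among the lower. None passed between numbers 25 and 13, where 5.87% of all genes were called.

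Of the 30 listed genes of the red cell membrane and blood groups other than GYPC and EPB42, 28 symbols were in the files, 18 passed the filter and 4 had 0 counts in all samples. With the replicate block CD59, a complement inhibitor of many cell types, was lower with shASXL2-2 by -0.58 (edgeR adjusted p 0.0428) and with both shRNAs averaged by -0.40 (edgeR adjusted p 0.0448). These 2 comparisons called 0.282% and 1.1% of all genes, and of the 18 genes only CD59. In number 1, 4 were higher than in the others, namely the urea transporter SLC14A1 (1.94), ADD3 (0.58), the glucose transporter SLC2A1 (0.52) and ICAM4 (0.44). These and 2 lower genes made 6 of 18, against 46.3% of all genes. RHCE (-0.42) and the protein 4.1 gene EPB41 (-0.19), whose product binds glycophorin C, were lower (edgeR adjusted p 0.0487 and 0.0358). In number 25 against number 13 ERMAP was lower (-0.33), where 5.87% of all genes were called.

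All 15 genes of erythropoietin signalling and erythroid receptors passed the filter. TFR2, a transferrin receptor that associates with the erythropoietin receptor, was in the blocked fit higher with shASXL2-2 (0.57, edgeR adjusted p 0.0165), with shASXL2-3 (0.37, edgeR adjusted p 0.0469) and with both averaged (0.47, edgeR adjusted p 0.0185). These comparisons called 0.282%, 0.416% and 1.1% of all genes, and of the 15 genes only TFR2. Number 1 stood above the others in 8 of the 15 and below them in 0, where 24.1% of all genes were higher and 22.2% lower, with a median of 0.18 against 0.01 over all genes. They included the receptor EPOR (0.55), the STAT5 targets CISH (0.51) and SOCS2 (0.43), the adaptor GAB1 (0.42) and KIT (0.36). In number 25 against number 13 SOCS3 (1.52), PIM1 (0.84) and CISH (0.45) were higher and STAT5A (-0.26) lower, where 5.87% of all genes were called. STAT5 and its targets also act downstream of GM-CSF, which the culture medium contained. A part of GM-CSF in these differences was not tested.

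Of 22 late erythroid enzymes and remodelling genes 14 passed the filter. None was called in the shRNA comparisons with all 9 samples, where edgeR called at most 1.1% of all genes. Between number 1 and the others 4 were higher and 2 lower, 6 of 14 against 46.3% of all genes, with a median of 0.22. BNIP3L, which clears mitochondria (1.54), TMCC2 (1.23), FAM210B (0.37) and catalase CAT (0.36) were higher, and the ubiquitin ligase MARCH3 (-0.57) was lower. BNIP3L was at 194 CPM in the shASXL2-3 sample numbered 1, against 101 and 95.8 CPM in the other samples numbered 1. In number 25 against number 13 MARCH3 was lower (-0.29), where 5.87% of all genes were called.

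The lists were counted again without the shASXL2-3 sample numbered 1, a step added after the values were seen. In number 1 against the others the transcription factors kept 6 higher and 2 lower, and the signalling genes 8 higher and 0 lower, and these were the same genes. The haem genes went from 4 higher and 7 lower to 3 and 3, the fetal globin regulators from 2 and 4 to 2 and 2, the membrane genes from 4 and 2 to 4 and 0, and the late erythroid genes from 4 and 2 to 4 and 1. The medians were then 0.05 for the haem genes, -0.04 for the fetal globin regulators, 0.07 for the membrane genes, 0.19 for the signalling genes and 0.17 for the late erythroid genes, and the share of all genes called was 33.7%. ABCB6, RHCE and EPB41 were among those no longer called.

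In number 25 against number 13 this step raised the calls from 4 to 7 transcription factors, from 0 to 4 haem genes, from 1 to 4 membrane genes, from 4 to 6 signalling genes and from 1 to 4 late erythroid genes, while the share over all genes rose from 5.87% to 19.2%. In the shRNA comparisons, with the block, TAL1 with shASXL2-3 (-0.59), TFR2 with each shRNA (0.57 and 0.38) and CD59 with shASXL2-2 (-0.58) still passed (edgeR adjusted p 0.000401 to 0.0136). GATA1 was then higher with shASXL2-2 by 0.95 (edgeR adjusted p 0.00997), at 5.96, 4.83 and 5.82 CPM in numbers 1, 13 and 25 against 3.08, 2.86 and 2.67 CPM in shControl, where the blocked fit of all 9 samples gave 0.96 (edgeR adjusted p 0.0896). With shASXL2-3 it was at 4.26, 3.52 and 1.78 CPM, values on both sides of the control. GATA2, a regulator of progenitors and mast cells, was lower in this fit with each shRNA, by -0.24 and -0.34 (edgeR adjusted p 0.0197 and 0.0201). It did not pass in the edgeR fits of all 9 samples. In numbers 1, 13 and 25 it was at 194, 192 and 203 CPM in shControl and 165, 155 and 179 CPM with shASXL2-2. With shASXL2-3 it was at 191, 144 and 171 CPM, so the sample left out lay near the control of its number.

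Haem genes also passed in this fit, with 4 of 20 higher with shASXL2-2 and 0 lower, among them UROS (0.30), GLRX5 (0.23) and TMEM14C (0.23), with edgeR adjusted p values of 0.0137 to 0.0486. None of the 20 passed with shASXL2-3. Of the 14 fetal globin regulators NFIX (-0.25) and CHD4 (-0.27) were lower with shASXL2-2 (edgeR adjusted p 0.0224 and 0.0268). In this fit 11.2% of all genes were called for shASXL2-2, so such counts lie among many calls.

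**Figure D4:**
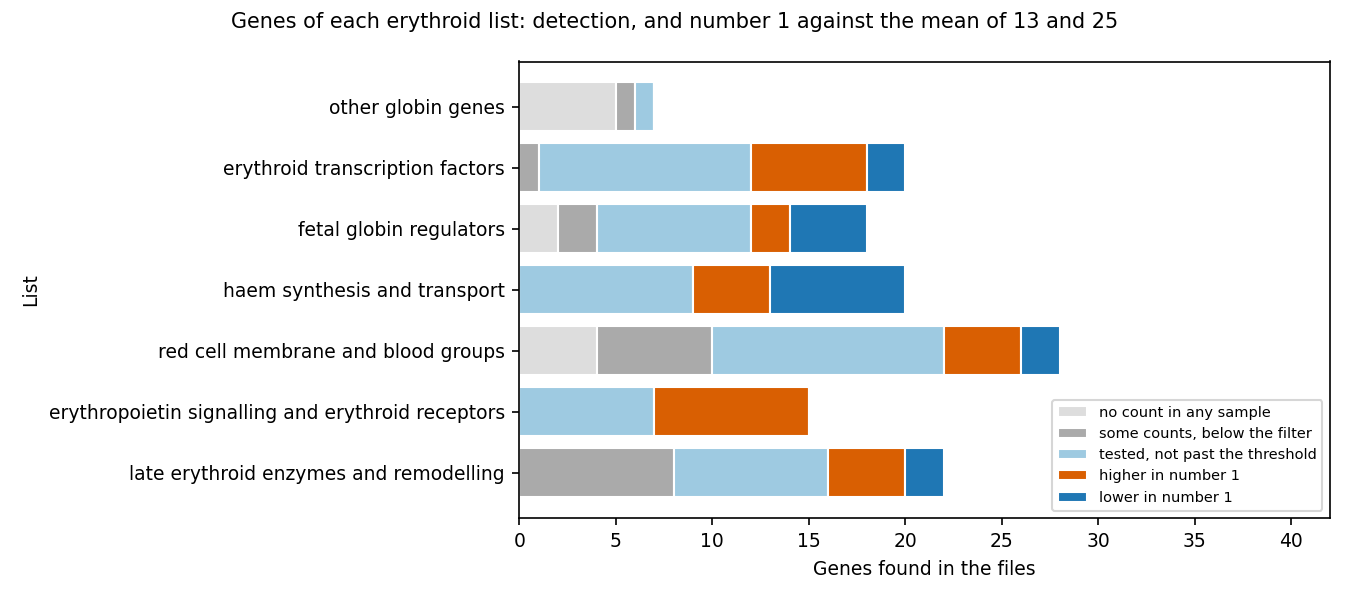
Number of genes in each erythroid list that had no count, had some counts below the filter, were tested without passing, or were higher or lower in number 1 than in the mean of numbers 13 and 25 (edgeR adjusted p under 0.05). Of 7 other globin genes 5 had no count and 1 was tested, whereas all 20 haem genes and all 15 signalling genes were tested, and the signalling list had 8 higher and 0 lower, where 46.3% of all genes were called.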

How the data were processed

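RNA-seq counts of 9 SKNO-1 samples were analysed. Each deposited file gives raw read counts for 48104 RefSeq transcripts on hg19 (GRCh37). The submitters' processing notes name STAR, featureCounts and DESeq2, and the authors' methods describe unstranded poly(A) libraries. Rows of 1 gene shared reads (the sum over rows was 2.24 times that with 1 row per gene), so the transcript with the highest total stood for each symbol. Of 25680 symbols 14199 passed filterByExpr (minimum count 10, minimum total 15).

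Tests were edgeR 4.0.16 quasi-likelihood F tests in R 4.3.3, with TMM scaling and Benjamini-Hochberg adjustment over all genes at 0.05, and were tested on simulated data. All 9 samples entered each fit. Groups were compared without a block and with the number as a replicate block, and numbers with the group as a term. The block was justified by correlated deviations from the group means (lowest r 0.398 and mean 0.598 over 9 same-numbered pairs). DESeq2 1.42.0, other scalings, no filter, summed rows, a transcript length offset (GENCODE 44 lengths) and leaving out each sample were alternatives. Fits with the block and without the shASXL2-3 sample numbered 1, and permutation tests without it, were added after the data were seen. Genes below the filter were compared by exact permutation tests of log2 CPM. Between genes, levels were compared as CPM per kilobase.

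The members and gene lists were chosen with earlier results of these data known. All 9 genes were named, and those with counts were compared. From each list up to 5 called genes were named, by size of change, and GATA1 and the copy pairs were named after their values were seen. The text attached to the samples on RNA extraction describes sorted marrow cells, while the labels name the cell line, which was taken as the source. Some genes of the lists are not reported here by name.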

Additional observations from a re-analysis of the deposited data

How the results depend on the processing

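Neither KLF1 nor GYPC was called in any of the 4 shRNA comparisons under any of the 18 alternatives. Adding the replicate block left GYPC at 0.00 with shASXL2-2 and 0.24 with shASXL2-3 (edgeR adjusted p 0.229) and changed no call of the 2 genes. The sign of small differences with shASXL2-2 depended on the setting: GYPC was at -0.0043 with library totals only, -0.0857 with the transcript length offset and -0.10 with that offset and the replicate block together, and KLF1 was at -0.0418 and -0.0453 with the length offset without and with the block. When 1 sample was left out, KLF1 with shASXL2-2 ranged from -0.13 to 0.13, GYPC with shASXL2-2 from -0.20 to 0.23, GYPC with shASXL2-3 from -0.0717 to 0.52, GYPC for both shRNAs averaged from -0.0373 to 0.27 and GYPC between the shRNAs from -0.0871 to 0.51. KLF1 in number 1 against the others ranged from -0.37 to 0.13.

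GYPC passed in number 1 against the others under all 16 alternatives (0.49 to 0.76, adjusted p up to 0.00409). The number of the 2 tested genes called in number 25 against number 13, and in number 1 against number 13, ranged from 0 to 1 when a sample was left out. Number 1 against number 13 also gave 0 calls without the group term (GYPC 0.34, edgeR adjusted p 0.07). Both this comparison and the fit below were chosen after seeing the data, and the causes were not tested. With the replicate block and without the shASXL2-3 sample numbered 1, the genes called rose from 40 to 1604 (shASXL2-2), 59 to 368 (shASXL2-3), 156 to 1755 (mean of both) and 15 to 103 (between the shRNAs), with KLF1 and GYPC among none of them. The share of HBG2 among gamma globin reads could not be computed because both genes had 0 counts. Depth limits the other 7 genes, whose levels were at or near the floor.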
